A study of Mus musculus with 16 samples.

Results

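The genes described are those of MHC class II antigen presentation: H2-Aa, H2-Ab1 and H2-Eb1, the chains of the cell surface molecules, H2-DMa and H2-DMb1, the chains of the peptide exchange factor, Cd74, the invariant chain, and Ciita, the transactivator of the family. They were chosen by gene symbol, and 6 of the 7 were measured, each by 1 probe set, among 19505 genes tested. Cd74 was not analysed here. Clariom S arrays measured RNA of sorted olfactory mucosa cells. The mice were S100a5-tauGFP, in which green fluorescent protein (GFP) reports S100a5, a gene that olfactory sensory neurons express when they are active. The 4 groups of 4 arrays were GFP+ and GFP- cells after octanol, an aliphatic alcohol odorant, and GFP+ and GFP- cells after vehicle, which was filtered air. All 24 mice, of both sexes and 7 to 12 weeks old, spent 40 h alone in chambers with a flow of clean air of 3.1 L/min, and from 26 h on received a pulse of 10 s every 20 min. Each array holds cells of 3 mice, so that 4 pools of mice stand behind each exposure and 1 array is not 1 animal. The GFP- fraction is every sorted cell without the reporter, and the sort was made on GFP, not on any surface marker of immune cells.

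Class II molecules are pairs of an alpha and a beta chain that display peptides of engulfed proteins to CD4+ T cells. The invariant chain guides the newly made pair to endosomes, where cathepsins cut the chain and its last remnant is exchanged for a peptide with the help of H2-DM, which H2-DO holds back. In mice the genes are on for the most part in dendritic cells, B cells and activated macrophages, under Ciita, a coactivator that does not bind DNA itself but is held at class II promoters by the RFX complex on the X box and by NF-Y on the Y box. The nasal mucosa holds such cells in and under the epithelium.

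Promoters of 4 class II genes are printed because they hold an X box core followed by a Y box core, and genes with large and with small differences between the fractions, H2-Aa and H2-DMb1, are among them. RefSeq promoters of mouse assembly GRCm38.p6, 250 bases before to 50 bases after the start, were searched on both strands for the Y box core TGATTGG, which 7.82% of 32851 promoters hold, and for the short X box core GNAAC, which 84.8% hold. GNAAC followed by TGATTGG with 15 to 35 bases between them occurred in 0.569% of promoters. The motifs were chosen after the sequences had been seen, do not overlap in this layout, and a match is a description only. Of the presentation genes 4 were in the promoter table, and 3 of them, H2-Aa, H2-Eb1 and H2-DMb1, held this layout, with 26, 25 and 26 bases between the motifs. H2-DMa had GNAAC but no TGATTGG in either of its entries, and any other start of H2-DMa was not searched. H2-Ab1 and Ciita were not used here. H2-Ob, a chain of the H2-DM inhibitor, held the layout with 23 bases between. Of 8 class II genes searched 6 held it, H2-Oa and H2-Eb2 among them. H2-DMa did not in the entries searched, and H2-DMb2 held both motifs but not in this layout. The sequences run 5′ to 3′ on the strand of the gene, at chr17:34287774-34288073 on the minus strand for H2-Aa and on the plus strand at chr17:34305617-34305916 for H2-Eb1, chr17:34152941-34153240 for H2-DMb1 and chr17:34238655-34238954 for H2-Ob. Capitals mark the X box core and then the Y box core.
H2-Aa: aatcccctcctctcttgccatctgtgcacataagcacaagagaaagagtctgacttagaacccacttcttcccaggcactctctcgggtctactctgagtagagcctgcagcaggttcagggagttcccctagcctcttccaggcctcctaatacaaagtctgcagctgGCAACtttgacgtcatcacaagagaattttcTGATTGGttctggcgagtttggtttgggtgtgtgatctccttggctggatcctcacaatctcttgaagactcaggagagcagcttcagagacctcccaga
H2-Eb1: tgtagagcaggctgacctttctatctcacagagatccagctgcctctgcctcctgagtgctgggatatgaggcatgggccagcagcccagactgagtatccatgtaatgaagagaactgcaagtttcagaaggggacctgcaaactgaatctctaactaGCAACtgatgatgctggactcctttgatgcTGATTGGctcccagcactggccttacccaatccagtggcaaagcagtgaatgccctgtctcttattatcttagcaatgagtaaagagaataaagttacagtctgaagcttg
H2-DMb1: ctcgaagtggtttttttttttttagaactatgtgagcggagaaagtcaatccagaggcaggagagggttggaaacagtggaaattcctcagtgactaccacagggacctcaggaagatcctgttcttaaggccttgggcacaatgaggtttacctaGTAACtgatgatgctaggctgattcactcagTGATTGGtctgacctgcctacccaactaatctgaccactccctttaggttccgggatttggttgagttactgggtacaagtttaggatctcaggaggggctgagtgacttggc
H2-Ob: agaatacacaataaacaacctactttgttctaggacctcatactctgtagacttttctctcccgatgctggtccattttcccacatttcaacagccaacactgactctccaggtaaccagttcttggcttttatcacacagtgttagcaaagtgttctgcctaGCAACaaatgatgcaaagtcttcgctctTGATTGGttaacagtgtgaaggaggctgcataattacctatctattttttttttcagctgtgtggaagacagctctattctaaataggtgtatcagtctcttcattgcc

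The class II chains were far lower in GFP+ than in GFP- cells after both exposures. H2-Aa, the alpha chain of the I-A molecule, was at 7.56, 7.21, 7.39 and 7.84 log2 in octanol GFP+ cells, against 13.09, 12.81, 11.86 and 12.24 log2 in octanol GFP- cells. In vehicle GFP+ cells it was at 7.77, 7.04, 7.52 and 7.40 log2, against 13.75, 12.97, 12.28 and 12.18 log2 in vehicle GFP- cells. Every GFP+ array lay far under every GFP- array, and replicate 1 was the highest GFP- array after each exposure. The fitted difference, GFP+ minus GFP-, was -5.00 log2 after octanol (SE 0.27, adjusted p = 7.28e-07, limma), which is 32.0-fold lower. After vehicle it was -5.36 log2 (SE 0.27, adjusted p = 4.77e-07), which is 41.1-fold lower. Within single pools the H2-Aa difference ran between -5.60 and -4.41 log2 after octanol and between -5.98 and -4.75 log2 after vehicle. A level in log2 units is read here against a background of 6.32 log2, the 95th percentile of the mean levels of 321 vomeronasal receptor genes, and all 16 arrays of H2-Aa lay above it.

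H2-Ab1, the beta chain that pairs with H2-Aa, was at 7.72, 7.89, 8.06 and 7.99 log2 in octanol GFP+ cells, against 13.72, 13.22, 12.26 and 12.57 log2 in octanol GFP- cells. After vehicle it was at 7.90, 7.43, 7.48 and 7.34 log2 in GFP+ cells, against 14.08, 13.50, 12.78 and 11.82 log2 in vehicle GFP- cells. The fractions did not overlap, and the GFP- arrays spread over 1.46 log2 after octanol and 2.26 log2 after vehicle where the GFP+ arrays spread over 0.34 and 0.56 log2. H2-Ab1 was 32.7-fold lower in GFP+ cells after octanol (-5.03 log2, SE 0.32, adjusted p = 1.95e-06) and 45.4-fold lower after vehicle (-5.51 log2, SE 0.32, adjusted p = 1.08e-06). H2-Eb1, the beta chain of the I-E molecule, was at 6.74, 6.58, 6.71 and 6.90 log2 in octanol GFP+ cells, against 10.59, 10.58, 9.96 and 9.91 log2 in octanol GFP- cells. In vehicle GFP+ cells it was at 6.77, 5.74, 6.23 and 6.25 log2, against 11.78, 10.85, 9.90 and 9.98 log2 in vehicle GFP- cells. Only replicate 1 of the vehicle GFP+ arrays lay above background for H2-Eb1, while all 4 octanol GFP+ arrays did. H2-Eb1 was 11.5-fold lower in GFP+ cells after octanol (-3.53 log2, SE 0.27, adjusted p = 5.95e-06). After vehicle it was at least 18.4-fold lower with values under background raised to it (fitted difference -4.38 log2, SE 0.27, adjusted p = 1.40e-06).

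Of the 6 measured genes 5 were called lower in GFP+ cells after octanol and 5 after vehicle, at an adjusted p under 0.05, where 13.2% of all genes were called lower after octanol and 13.5% after vehicle. The same 5 genes did not overlap between the fractions, against 12.4% and 13.2% of all genes that lay lower without overlap. The median difference of the 6 genes was -2.53 log2 after octanol and -3.06 log2 after vehicle, beside 0.14 and 0.13 log2 over all genes tested, and -2.52 and -2.97 log2 with values under background raised to it. Ordered from the most negative difference, H2-Ab1 stood at place 98 after octanol and 71 after vehicle of 19505 genes, H2-Aa at 101 and 83, and H2-Eb1 at 296 and 161. In sorted bulk samples fewer cells of a type and less RNA per cell cannot be told apart.

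**Figure D1:**
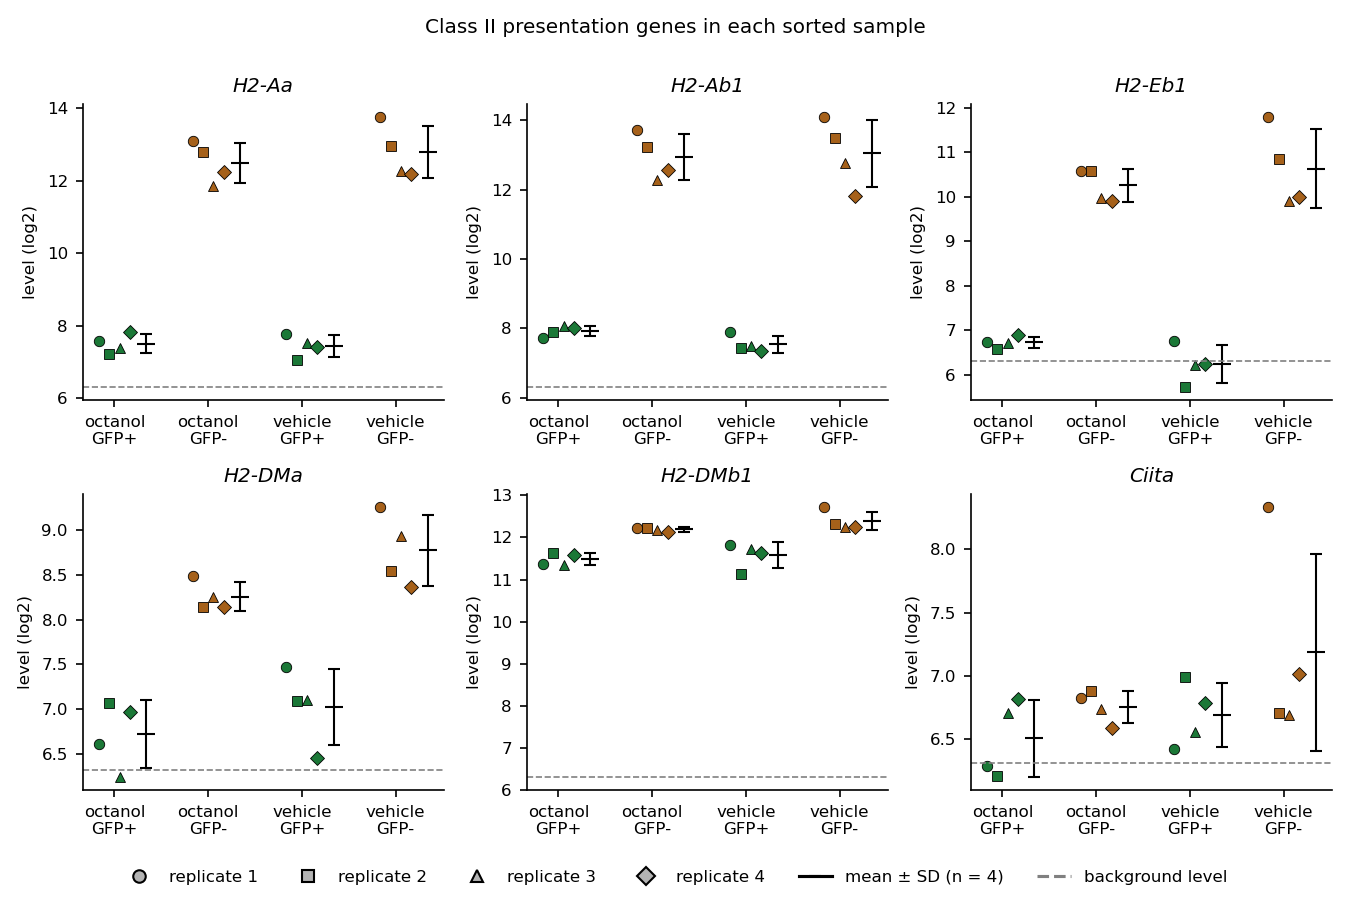
Levels of the 6 measured class II presentation genes (y axes, log2, a separate scale in each panel) in each array of the 4 groups, with symbols for replicates, bars for the mean and SD of 4 arrays and a dashed line at the background of 6.32 log2. H2-Aa, H2-Ab1 and H2-Eb1 show the widest gap between GFP+ and GFP- arrays, H2-DMb1 a narrow one without overlap, and Ciita arrays overlap except for vehicle GFP- replicate 1.

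The chains of H2-DM, which edits the peptides that class II molecules carry, were lower in GFP+ cells by less. H2-DMa was at 6.61, 7.07, 6.25 and 6.96 log2 in octanol GFP+ cells, of which 3 of 4 arrays lay above background, against 8.49, 8.14, 8.26 and 8.14 log2 in octanol GFP- cells. H2-DMa was at 7.47, 7.09, 7.10 and 6.45 log2 in vehicle GFP+ cells, against 9.26, 8.55, 8.93 and 8.37 log2 in vehicle GFP- cells. The H2-DMa fractions stood apart after each exposure, at least 2.86-fold after octanol (-1.53 log2, SE 0.17, adjusted p = 7.73e-05) and 3.36-fold after vehicle (-1.75 log2, SE 0.17, adjusted p = 3.09e-05). H2-DMb1 was at 11.37, 11.64, 11.35 and 11.59 log2 in octanol GFP+ cells, against 12.24, 12.23, 12.17 and 12.13 log2 in octanol GFP- cells. In vehicle GFP+ cells it was at 11.82, 11.14, 11.73 and 11.62 log2, against 12.71, 12.32, 12.26 and 12.26 log2 in vehicle GFP- cells. H2-DMb1 was thus far above background in both fractions, and lower in GFP+ cells by 1.63-fold after octanol (-0.70 log2, SE 0.12, adjusted p = 0.00202) and 1.75-fold after vehicle (-0.81 log2, SE 0.12, adjusted p = 8.27e-04). H2-DMb2, a near copy of H2-DMb1 whose transcripts a probe set may not fully separate from it, differed by -0.23 log2 after octanol (adjusted p = 0.269) and -0.39 log2 after vehicle (adjusted p = 0.0791). It averaged 12.32 ± 0.11 log2 in octanol GFP+ and 12.55 ± 0.17 log2 in octanol GFP- cells, and 12.46 ± 0.08 log2 in vehicle GFP+ and 12.85 ± 0.40 log2 in vehicle GFP- cells (SD, n = 4 each).

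Ciita, the transactivator, was close to background in every group, and the test did not separate its fractions. It was at 6.29, 6.21, 6.71 and 6.82 log2 in octanol GFP+ cells, against 6.83, 6.88, 6.74 and 6.59 log2 in octanol GFP- cells. Ciita was at 6.42, 6.99, 6.55 and 6.79 log2 in vehicle GFP+ cells, against 8.33, 6.70, 6.69 and 7.02 log2 in vehicle GFP- cells. Of these arrays 2 of 4 octanol GFP+ arrays lay under background, and vehicle GFP- replicate 1 was the only array over 8 log2. The difference was -0.25 log2 after octanol (95% interval -0.93 to 0.43, adjusted p = 0.561) and -0.50 log2 after vehicle (95% interval -1.18 to 0.18, adjusted p = 0.248). The intervals do not reach the size of the H2-Aa, H2-Ab1 or H2-Eb1 differences. With Ciita this close to background in both fractions, however, a difference of that size could not show, so the intervals do not bound it.

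The DNA-binding partners of Ciita showed small differences. Rfx5, Rfxap and Rfxank, the subunits of the RFX complex, differed by 0.18, 0.24 and -0.07 log2 after octanol and by 0.22, 0.14 and -0.04 log2 after vehicle, with adjusted p of 0.165 or more. Of the NF-Y subunits, Nfyb and Nfyc differed by -0.03 and 0.14 log2 after octanol and by -0.06 and 0.04 log2 after vehicle and were not called. Nfya differed by -0.19 log2 after octanol (adjusted p = 0.342) and fell by 0.44 log2 after vehicle (adjusted p = 0.0449), where the arrays of the fractions overlapped. Both hematopoietic factors on the list differed more. Spi1, which encodes PU.1, a regulator of myeloid and B cell genes, was at 8.60, 9.28, 10.13 and 10.89 log2 in octanol GFP+ cells, against 16.10, 15.57, 15.57 and 16.28 log2 in octanol GFP- cells. Spi1 was at 8.81, 8.85, 8.84 and 9.43 log2 in vehicle GFP+ cells, against 15.57, 15.41, 15.35 and 16.04 log2 in vehicle GFP- cells. That is 71.4-fold lower in GFP+ cells after octanol (-6.16 log2, SE 0.29, adjusted p = 2.90e-07) and 97.8-fold lower after vehicle (-6.61 log2, SE 0.29, adjusted p = 1.79e-07). Irf8, which directs dendritic cell and monocyte development, differed by -0.96 log2 after octanol (adjusted p = 0.0115) and by -1.11 log2 after vehicle (adjusted p = 0.00523).

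Among 23 measured genes of the pathway outside the presentation genes, 11 were called lower in GFP+ cells after octanol and 12 after vehicle, and 0 were called higher after either. Over all genes 13.2% were called lower and 16.7% higher after octanol, and 13.5% and 14.7% after vehicle. The median differences of the 23 genes were -0.23 and -0.54 log2. H2-Oa and H2-Ob are the chains of H2-DO. H2-Oa lay under background in all 8 GFP+ arrays and was at least 2.06-fold lower in them after octanol (adjusted p = 0.00527) and at least 2.54-fold lower after vehicle (adjusted p = 0.0018). H2-Ob was at 9.40, 9.28, 8.22 and 7.93 log2 in octanol GFP- cells and at 11.54, 9.64, 9.22 and 8.48 log2 in vehicle GFP- cells, and at least 5.22-fold lower in GFP+ cells after octanol (adjusted p = 0.00166) and at least 9.81-fold lower after vehicle (adjusted p = 2.08e-04). H2-Eb2, a second I-E type beta chain, lay under background in 15 of 16 arrays. Its exception was vehicle GFP- replicate 1, at 7.20 log2.

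The enzymes that prepare peptides did not move as 1 group. Ifi30, the thiol reductase that opens disulfide bonds in lysosomes, was 26.4-fold lower in GFP+ cells after octanol (-4.72 log2, SE 0.25) and 32.7-fold lower after vehicle (-5.03 log2, SE 0.25). Ctss, cathepsin S, which trims the invariant chain in dendritic and B cells, was 8.33-fold lower after octanol and 9.11-fold lower after vehicle. Ctsz, a carboxypeptidase, was 6.47-fold and 5.66-fold lower, and Ctsl, cathepsin L, 1.63-fold and 1.68-fold lower. Ctsb, cathepsin B, and Lgmn, the asparagine endopeptidase, differed by 0.16 and 0.25 log2 after octanol and by 0.17 and 0.14 log2 after vehicle and were not called (smallest adjusted p = 0.0585). Both are made by many cell types.

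Genes that act at the cell surface split as well. Marchf1, the ubiquitin ligase that removes class II molecules and Cd86 from the surface, lay above background in 1 of 4 octanol GFP+ arrays and 0 of 4 vehicle GFP+ arrays, and its level there was lower by at least 7.98-fold after octanol (adjusted p = 7.04e-06) and at least 7.69-fold after vehicle (adjusted p = 4.55e-06). Marchf8, its widely expressed relative, differed by 0.05 and -0.01 log2 and was not called. Cd80 and Cd86, which costimulate T cells, lay under background in all GFP+ arrays and above it in all GFP- arrays. Cd80 was at least 2.04-fold lower after octanol and at least 2.19-fold lower after vehicle, and Cd86 at least 1.36-fold and 1.44-fold. Cd40, the receptor through which T cells license these cells, differed by -0.03 and -0.15 log2 and was not called.

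**Figure D2:**
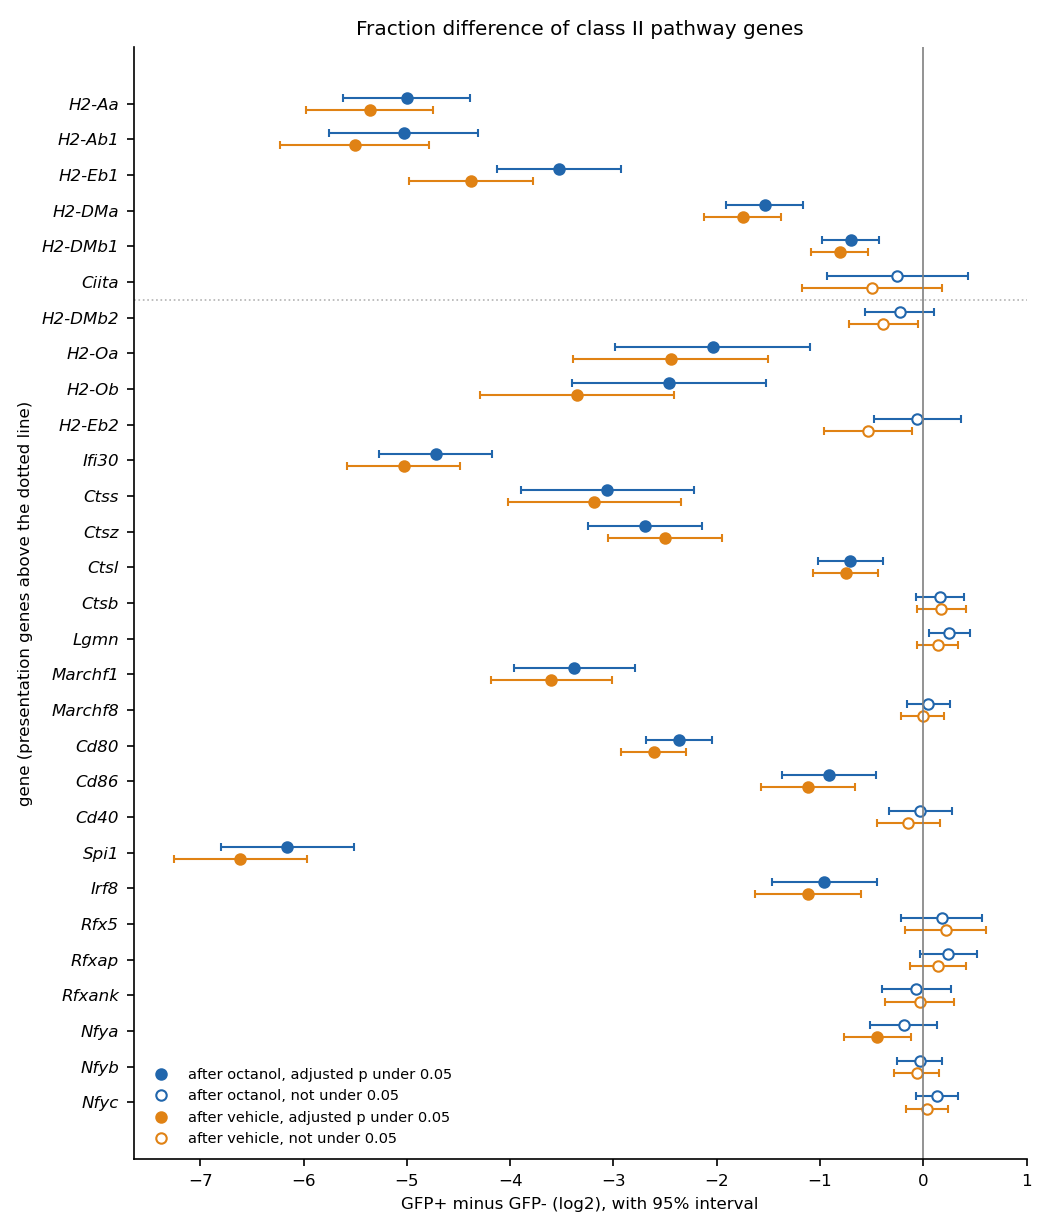
GFP+ minus GFP- difference (x axis, log2, with 95% interval) after octanol (blue) and after vehicle (orange) for the presentation genes above the dotted line and the 23 other pathway genes under it (y axis), with filled points for an adjusted p under 0.05. H2-Aa, H2-Ab1, H2-Eb1, Ifi30 and Spi1 lie farthest to the left, and Ciita and the RFX subunits have open points near 0. Values under background are plotted as measured.

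Many markers of leukocytes were also lower in GFP+ than in GFP- cells, and their part in the result was not tested. Beside the list counts here and below stand the shares of all genes, as deposited. These were 13.2% called lower and 16.7% higher after octanol, and 13.5% and 14.7% after vehicle. All 8 pan-leukocyte markers were lower in GFP+ cells after both exposures, with medians of -5.41 log2 after octanol and -5.56 log2 after vehicle (-5.37 and -5.55 log2 with values under background raised to it). Their summed linear signal ran between 1095 and 3043 in octanol GFP+ arrays and between 55309.5 and 98631 in octanol GFP- arrays, and between 1220.2 and 1844 in vehicle GFP+ and between 56912 and 81049.9 in vehicle GFP- arrays. Ptprc, which encodes CD45 and was named after its values were seen, averaged 7.93 log2 in octanol GFP+ and 13.32 log2 in octanol GFP- cells, and 7.85 log2 in vehicle GFP+ and 13.38 log2 in vehicle GFP- cells. Of 11 macrophage and monocyte markers 10 were lower in GFP+ cells after octanol and 9 after vehicle, with a summed signal of 1758 to 5169 in octanol GFP+, 78561 to 150381 in octanol GFP-, 1541 to 2642 in vehicle GFP+ and 81360.0 to 128920.0 in vehicle GFP- arrays. The count after octanol was 6 without octanol replicate 1 and 6 without octanol replicate 2.

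Of 9 B cell markers 6 were lower in GFP+ cells after octanol and 7 after vehicle. Cd79a, a signalling chain of the B cell receptor, was at least 12.1-fold lower after octanol (adjusted p = 0.00195), with 3 of 4 GFP+ arrays above background, and 25.3-fold lower after vehicle (adjusted p = 4.77e-04). Its partner Cd79b lay above background in 1 of 4 GFP+ arrays after each exposure, and was at least 9.76-fold and at least 13.8-fold lower (adjusted p = 2.16e-05 and 1.08e-05). The list's summed signal, 87239 to 105778 in octanol GFP+, 79759.6 to 92085.5 in octanol GFP-, 92624.6 to 103832 in vehicle GFP+ and 79207 to 108268 in vehicle GFP- arrays, is carried by Ebf1, a factor that olfactory neurons also make, named after its values were seen, that averaged 16.3 to 16.6 log2 in the 4 groups. With values under background raised to it, 2 B cell markers stayed called after octanol and 4 after vehicle. Of 10 dendritic cell markers 5 were lower after each exposure (Cd209a, Flt3, Itgax and Siglech after both, and, named after their values were seen, Clec10a after octanol and Clec9a, under background in every array, after vehicle), with a summed signal of 794 to 995 in octanol GFP+, 1107 to 1704 in octanol GFP-, 815 to 918 in vehicle GFP+ and 1161 to 1317 in vehicle GFP- arrays. Cd209a, which monocyte-derived dendritic cells carry, lay under background in all GFP+ arrays and was at least 2.52-fold lower after octanol and at least 2.57-fold lower after vehicle (adjusted p = 1.15e-04 and 4.07e-05). Xcr1 and Clec9a, which define cross-presenting dendritic cells, lay under background in all 16 arrays, as an inspection of the list after its values were seen showed. With only genes above background in a group, 3 dendritic cell markers were called lower after octanol and 2 after vehicle. Flt3 lay above background in 1 of 4 GFP- arrays after each exposure. The list's medians were -0.56 and -0.41 log2 (-0.15 and -0.030 log2 with values under background raised to it). Zbtb46 and Batf3, named after their values were seen, and Xcr1 averaged higher in GFP+ cells, and 0 markers were called higher. Zbtb46, above background in every array, averaged 7.33 log2 in GFP+ against 7.10 log2 in GFP- cells after octanol and 7.26 against 6.88 log2 after vehicle.

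All 7 neutrophil markers were lower after both exposures, with medians of -6.80 and -8.19 log2 (-6.80 and -7.91 log2 with values under background raised to it), and 7 of 9 T and NK cell markers after octanol and 8 of 9 after vehicle. Of 10 olfactory sensory neuron markers 4 were higher in GFP+ cells after octanol and 3 after vehicle, with medians of 0.23 and 0.17 log2. That count was 10 after each exposure with arrays centred on their median, 0 after each with arrays centred on odorant receptor genes, and after octanol 1 without replicate 1, 2 without replicate 2 and 1 without replicate 4. After vehicle it was 1 without replicate 1, without replicate 3 or without replicate 4. The mean level of these markers was 17.1 log2 in octanol GFP+ and 16.9 log2 in octanol GFP- cells, and 17.1 log2 in vehicle GFP+ and 16.9 log2 in vehicle GFP- cells. Of 12 epithelial support and gland markers 9 were lower in GFP+ cells after each exposure (5 after octanol without replicate 1 or without replicate 2), and 1, Trp63, was called higher after octanol while under background in all arrays of both fractions. Of 9 endothelial and fibroblast markers measured, 1 was lower after octanol (Pecam1) and 2 after vehicle (Pecam1 and Dcn), and the count after vehicle was 1 without vehicle replicate 1, replicate 2 or replicate 4. Trp63, Pecam1 and Dcn were named after their values were seen. S100a5 itself was 1.82-fold higher in GFP+ cells after octanol (0.86 log2, SE 0.12, adjusted p = 4.61e-04) and 1.77-fold higher after vehicle (0.82 log2, SE 0.12, adjusted p = 6.38e-04).

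Class I presentation, which nearly all cells with a nucleus use, was lower in GFP+ cells as well. Of 18 measured genes 11 were called lower and 1 higher after octanol (Erap1, a peptide trimming enzyme named after its value was seen, 0.37 log2), and 12 lower and 0 higher after vehicle, with medians of -1.21 and -1.38 log2 (-0.64 and -0.82 log2 with values under background raised to it). H2-K1, a classical heavy chain, differed by -3.66 log2 after octanol and -3.91 log2 after vehicle, and B2m, the light chain, by -3.82 and -4.04 log2. H2-D1, another classical heavy chain, was at least 13.2-fold lower after octanol and at least 15.9-fold lower after vehicle, with 3 of 4 and 1 of 4 GFP+ arrays above background. Of 15 measured genes of the interferon gamma response, which induces Ciita, 8 were lower after octanol and 7 after vehicle, with medians of -0.65 and -0.59 log2 (-0.073 and -0.15 log2 with values under background raised to it). Irf1 differed by -1.92 log2 after octanol and -1.68 log2 after vehicle. Irgm1 lay under background in all GFP+ arrays and was at least 2.57-fold lower after octanol and at least 2.12-fold lower after vehicle (adjusted p = 1.30e-05 and 2.55e-05).

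Within the GFP- fraction the presentation genes varied together from pool to pool. With the mean of each exposure removed, H2-Aa correlated with H2-Ab1 at r = 0.94 (rho = 0.93) and with H2-Eb1 at r = 0.95 (rho = 0.83) over 8 arrays. Without the 2 arrays whose mean of the 6 genes lay farthest from the exposure mean, r was 0.99 and 0.89. H2-DMb1 and Ciita correlated at r = 0.96 (rho = 0.90) and at 0.88 without those arrays. The r of H2-DMa with the other 5 genes ran between 0.59 and 0.74 over 8 arrays. Without the 2 farthest arrays, vehicle replicates 1 and 4, H2-DMa stood aside, with r between -0.28 and 0.23. The lowest r over 8 arrays was that of H2-Ab1 with Ciita, 0.53 (rho = 0.43, and r = 0.63 without the 2 farthest arrays). Replicate 1 held the highest GFP- value of 5 of 6 genes after octanol and of 6 of 6 after vehicle. The mean of the 6 genes was 10.83, 10.64, 10.21 and 10.26 log2 in octanol GFP- cells and 11.65, 10.82, 10.47 and 10.27 log2 in vehicle GFP- cells. These correlations, here and in the next paragraph, are descriptions over 8 arrays. The labels do not say which arrays share a cell sort or array handling.

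The mean of the presentation genes followed the mean of the B cell markers over the 8 GFP- arrays, at r = 0.96 (rho = 0.90) and 0.98 without the 2 farthest arrays. After each exposure both means lay above the exposure mean in replicates 1 and 2 and below it in replicates 3 and 4. What same-numbered arrays share was not tested. Of the 8 B cell markers with a mean above background in GFP- arrays 5 had an r over 0.9, beside 0.761% of the 13004 genes above background there. These were Cd79a (0.91), Fcrla (0.91) and, named after their values were seen, Cd22 (0.96), Pax5 (0.96) and Blk (0.90). The B cell list mean ranged over 2.34 log2 in these arrays. The list of 23 other pathway genes had r = 0.84 (rho = 0.62, and 0.75 without the 2 farthest arrays) and a range of 0.49 log2. The macrophage and monocyte list had r = 0.21 (rho = 0.24, and 0.59 without the 2 farthest arrays) and a range of 0.59 log2. The dendritic cell list had r = -0.16 (rho = -0.26, and 0.14 without the 2 farthest arrays) and 0.48 log2, and the pan-leukocyte list r = -0.10 (rho = 0.00, and 0.20 without them) and 0.89 log2. Single genes of a list differed. Their r ran from -0.63 to 0.86 for macrophage and monocyte markers and from -0.57 to 0.32 for dendritic cell markers. It ran from -0.68 to 0.79 for pan-leukocyte markers and from 0.63 to 0.96 for B cell markers. The interferon gamma response list had r = 0.69 (rho = 0.71, and 0.25 without the 2 farthest arrays), the T and NK cell list r = 0.59 (rho = 0.33, and -0.32 without them) and the class I list r = 0.53 (rho = 0.57, and 0.64 without them). The neutrophil list had r = -0.36 (rho = -0.36, and 0.17 without them). Lists with a narrow range leave less to correlate. H2-Ob, which B cells express, had the second highest r of the 13004 genes, 0.98, after Lax1, an adaptor of lymphocyte signalling, at 0.99. Cmah, which makes a sialic acid, Mef2c and Ikzf3, transcription factors of B cells among other cells, and Zfp36l1, an RNA-binding protein, were among the 10 genes most like the mean (r from 0.97 to 0.98). Slc1a2, a glutamate transporter, Midn, Cpox, an enzyme of heme synthesis, and C3ar1, the complement C3a receptor, completed them, with r from 0.97 to 0.98. Lax1 was at 7.42, 7.06, 6.51 and 6.70 log2 in octanol GFP- cells and at 8.51, 7.60, 7.03 and 6.86 log2 in vehicle GFP- cells, the same order of pools as the mean of the presentation genes over all 8 arrays with exposure means removed (rho = 1.00). Of the 10 genes 6 were called lower in GFP+ cells after octanol and 7 after vehicle, beside 13.2% and 13.5% of all genes. Lax1 was called after vehicle (-1.41 log2, adjusted p = 0.00487) and not after octanol (-0.74 log2, adjusted p = 0.0776). Slc1a2 was higher in GFP+ cells (0.61 and 0.60 log2, adjusted p = 0.00414 and 0.00476), and Midn and Cpox were not called after either exposure.

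**Figure D3:**
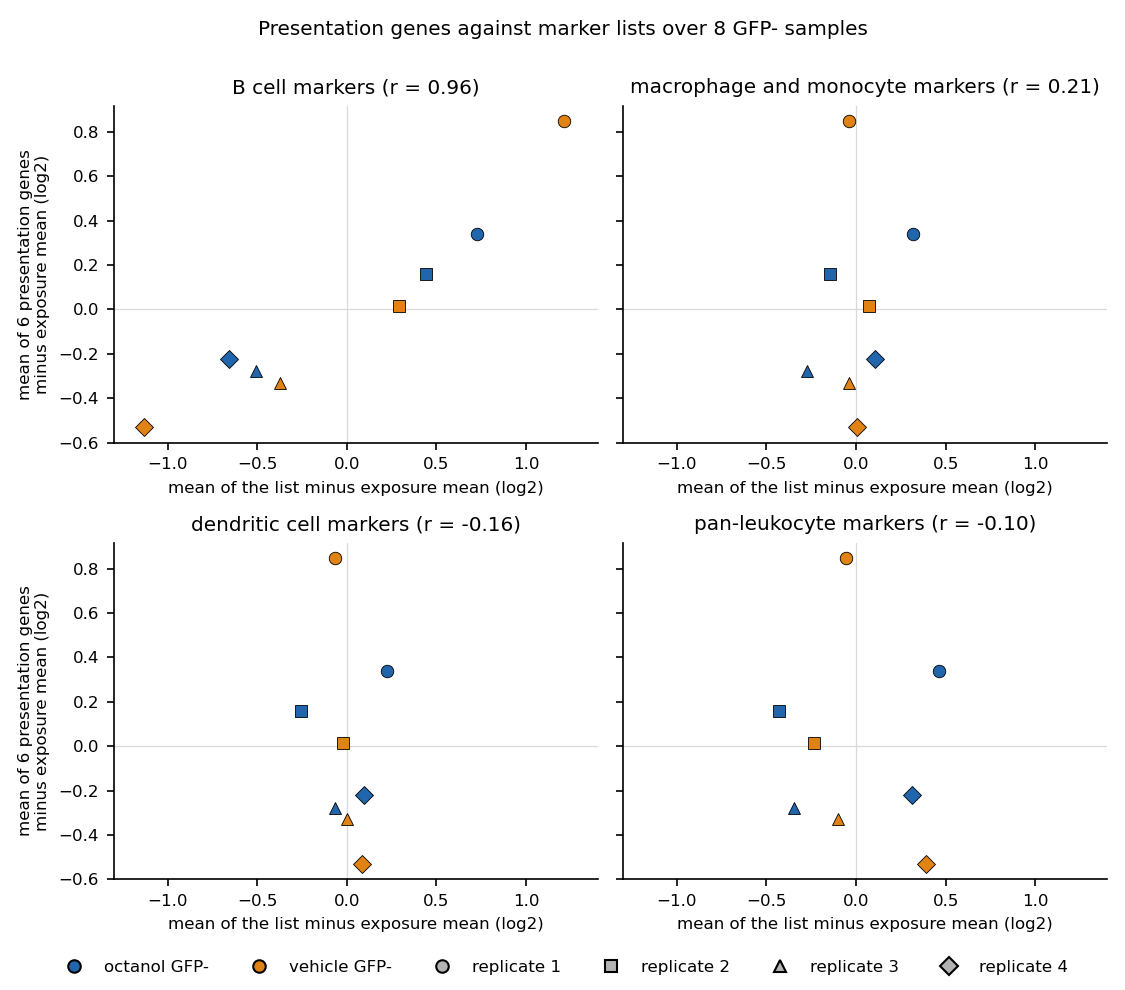
Mean of the 6 presentation genes (y axes) against the mean of 4 marker lists (x axes), both in log2 minus the mean of the exposure, over 8 GFP- arrays, with colours for exposures and symbols for replicates. The arrays line up for the B cell markers (r = 0.96), and vehicle replicate 1 is highest on both axes there, while the macrophage, dendritic and pan-leukocyte lists show no such line (r = 0.21, -0.16 and -0.10).

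No presentation gene passed the threshold between octanol and vehicle in either fraction. In GFP+ cells 0 of 6 genes were called, as were 0.0% of all genes, and 2 of 6 had an unadjusted p under 0.05, beside 3.73% of all genes (727 genes). These were H2-Ab1, at 7.91 ± 0.15 log2 in octanol GFP+ and 7.54 ± 0.25 log2 in vehicle GFP+ cells (SD, n = 4 each), and H2-Eb1, at 6.73 ± 0.13 log2 in octanol GFP+ and 6.25 ± 0.42 log2 in vehicle GFP+ cells. The difference, octanol minus vehicle, was 0.37 log2 for H2-Ab1 (95% interval 0.05 to 0.70, limma adjusted p = 0.9996) and 0.48 log2 for H2-Eb1 (95% interval 0.05 to 0.92, adjusted p = 0.9996). The arrays of both genes overlapped between exposures, and H2-Eb1 lay near background. The other 4 genes differed by -0.31 to 0.07 log2.

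In GFP- cells all 6 differences, octanol minus vehicle, were below 0, with a median of -0.33 log2 against -0.02 log2 over all genes, and 0 were called, as were 0.0% of all genes. H2-DMa differed most, at 8.26 ± 0.16 log2 in octanol GFP- and 8.78 ± 0.40 log2 in vehicle GFP- cells (SD, n = 4 each), a difference of -0.52 log2 (95% interval -0.94 to -0.10, limma adjusted p = 0.982). It was the 1 gene of 6 with an unadjusted p under 0.05, beside 4.58% of all genes (894 genes). H2-DMb1 was the 1 gene whose arrays did not overlap, lower in each octanol GFP- array than in each vehicle GFP- array, beside 1.51% of all genes that lay lower without overlap. Its difference was -0.20 log2 (95% interval -0.49 to 0.10). For H2-Aa the interval, -1.08 to 0.50 log2, and for H2-Ab1 the interval, -1.11 to 0.90 log2, leave room for a change of over 1 log2. The B cell markers had a median difference of -0.63 log2, with 0 of 9 genes called, and their part was not tested. Without vehicle replicate 1 the differences were 0.027 log2 for H2-Aa, 0.24 log2 for H2-Ab1, 0.011 log2 for H2-Eb1, -0.36 log2 for H2-DMa, -0.087 log2 for H2-DMb1 and -0.047 log2 for Ciita.

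**Figure D4:**
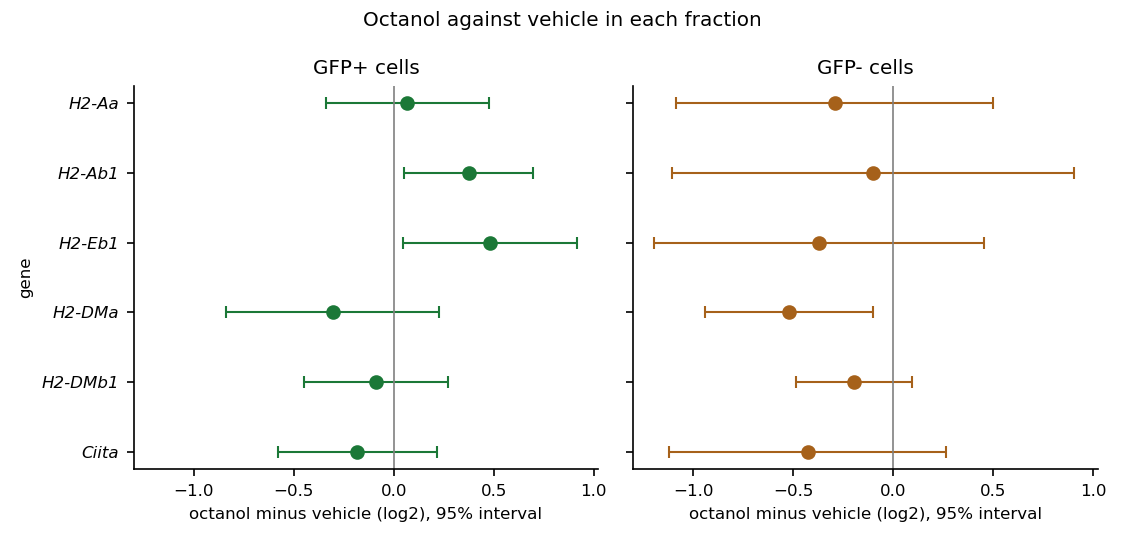
Octanol minus vehicle (x axes, log2, with 95% interval) for the 6 presentation genes (y axis) in GFP+ cells, left, and GFP- cells, right, with 4 arrays per group. Intervals for H2-Ab1 and H2-Eb1 in GFP+ cells and for H2-DMa in GFP- cells leave out 0 before adjustment over 19505 genes, and all 6 GFP- differences lie below 0.

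The GFP+ minus GFP- difference itself was not called as different between exposures for any presentation gene in limma's interaction test, nor for any gene of 19505. Its estimate, octanol minus vehicle, was above 0 for all 6, which share their arrays with the comparisons above. H2-Eb1 had the largest, 0.85 log2 (95% interval 0.01 to 1.70, limma adjusted p = 0.998), and the 1 unadjusted p under 0.05. Over all genes 886 (4.54%) had an unadjusted p under 0.05, and eBayes with trend and robust settings called 1 gene, which was none of the 6. For H2-Aa the estimate was 0.36 log2 (95% interval -0.51 to 1.23), for H2-Ab1 0.48 log2 (-0.55 to 1.499), for H2-DMa 0.21 log2 (-0.31 to 0.74), for H2-DMb1 0.11 log2 (-0.29 to 0.50) and for Ciita 0.25 log2 (-0.72 to 1.21).

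All presentation genes measured here except Ciita lie in 1 stretch of chromosome 17, and the genes between H2-Oa and H2-Eb2 were described in their RefSeq order. This stretch was chosen after the values were seen. It holds 15 genes, of which 14 were measured, and 10 were called lower and 0 higher in GFP+ cells after octanol, and 11 and 0 after vehicle. Over all genes 13.2% were called lower and 16.7% higher after octanol, and 13.5% and 14.7% after vehicle. The counts of the stretch include the 5 presentation genes called above and genes already counted in the pathway and class I lists. The difference was uneven along it. Brd2, a chromatin reader made in most cells that sits between H2-Oa and H2-DMa, differed by -0.17 log2 after octanol (adjusted p = 0.192) and -0.26 log2 after vehicle (adjusted p = 0.0653). The class I processing genes Psmb9, Tap1, Psmb8 and Tap2 lie between H2-DMb1 and H2-Ob. Psmb9 lay under background in all GFP+ arrays and was at least 2.28-fold lower after octanol and at least 2.004-fold lower after vehicle, and Psmb8, which 3 of 4 and 2 of 4 GFP+ arrays put above background, was lower by at least 5.91-fold and 4.85-fold. Tap1 and Tap2 differed by -1.56 and -0.35 log2 after octanol and by -1.81 and -0.60 log2 after vehicle, and Tap2 was called after vehicle only (adjusted p = 0.102 after octanol and 0.0133 after vehicle, with no test between exposures beyond the interaction, which called 0 genes). H2-Ab1, H2-Aa and H2-Eb1, neighbours in that order, had the largest differences of the stretch.

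**Figure D5:**
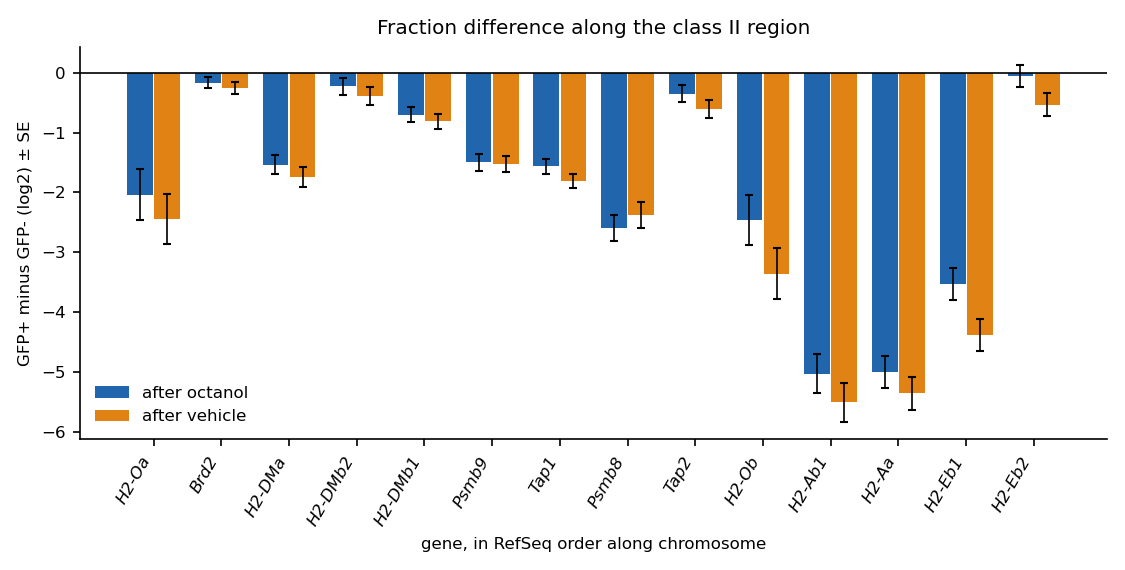
GFP+ minus GFP- difference (y axis, log2, bars with SE) after octanol (blue) and after vehicle (orange) for the 14 measured genes from H2-Oa to H2-Eb2 in their RefSeq order (x axis, not to scale). H2-Ab1, H2-Aa and H2-Eb1 have the longest bars, and Brd2, H2-DMb2, Tap2 and H2-Eb2 short ones beside them. Values under background are plotted as measured.

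Arrays within a group correlated at r from 0.990 to 0.994 over all genes, and 63.8 to 67.2% of genes lay above background on each array. The median difference of all genes between fractions depended on scaling: it was 0.14 log2 after octanol and 0.13 log2 after vehicle as deposited, 0.41 and 0.46 log2 with arrays centred on their median, and -0.36 and -0.17 log2 with arrays centred on odorant receptor genes. Under each of these scalings the 5 presentation genes called as deposited were called lower. Over 12 alternatives the difference after octanol ran between -5.50 and -4.73 log2 for H2-Aa and between -1.20 and -0.43 log2 for H2-DMb1. The number of arrays limits the precision of all values.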

How the data were processed

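Clariom S arrays measured RNA (50 to 100 ng) of GFP+ and GFP- cells, 4 arrays per group. The authors deposited log2 values per probe set, made with Affymetrix Expression Console per the submitters' processing notes; neither its version nor its settings for summary and normalization are given in those notes. The depth of an array has no count, and the number of arrays limits precision. Of 28846 probe sets, 6640 were taken as controls by their names, 19572 carried 1 gene symbol and 2634 none, and the probe set with the highest mean was kept per gene, giving 19505 genes, all matched by Entrez number to RefSeq (GRCm38.p6), used for names, gene order and promoters. Probe set strand and genome build: not given in the sources used here.

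Fractions and their interaction with exposure were tested in limma 3.58.1 (R 4.3.3; lmFit, eBayes, two-sided, Benjamini-Hochberg over all genes, threshold 0.05) over 16 arrays with the pool as a block. The pairing is inferred: 24 mice make 8 pools of 3, so arrays of 1 exposure and number are taken as the same mice. Their deviations from group means correlated at 0.0779 to 0.222. Exposures were compared over 8 arrays of a fraction without a block. Values under the background (6.32 log2) were raised to it for bounds ("at least"). The members and gene lists were chosen with earlier results of these data known. Genes named are the presentation genes, the measured genes of the pathway list, the 10 genes most like the presentation genes over GFP- arrays, up to 4 genes per list with the largest difference after vehicle, and S100a5; others are marked where named. The procedure was tested on simulated data. Alternatives were other scalings and centrings, filters, variance models, probe set averaging, the block, and leaving out each replicate.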

Additional observations from a re-analysis of the deposited data

Results flagged for a closer look

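In 5 of 120 sets of 4 arrays (30 genes, the class II pathway and S100a5, in 4 groups), 1 array lay far from the other 3 by Dixon's test at 95%, which flags about 1 in 20 groups by chance. H2-DMb1 was highest in 1 vehicle GFP- array, at 12.713 log2 with the next at 12.321 log2. H2-Eb2, under background elsewhere, was highest in the same group at 7.1959 log2, with the next at 5.6137 log2. H2-DMb2 was highest in 1 octanol GFP+ array at 12.4827 log2, with the next at 12.2714 log2. Spi1 was highest in 1 vehicle GFP+ array at 9.4259 log2, with the next at 8.8512 log2, and S100a5 in 1 octanol GFP+ array at 16.8576 log2, with the next at 16.7862 log2. For H2-DMb1 and H2-Eb2 the array was replicate 1, the vehicle GFP- array in which all 6 presentation genes were highest.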

How the results depend on the processing

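The count of presentation genes called kept its value in all 74 alternatives: 5 for each fraction comparison, and 0 for each exposure comparison and for the interaction. With no replicate block the fraction counts were 5 and 5, and with a replicate block across exposures the exposure counts were 0 and 0. Over all genes, 2806 were higher and 2474 lower after octanol with no replicate block, and 2456 and 2535 after vehicle. Of the 23 other pathway genes 1 was then higher and 11 lower after octanol, and 11 lower after vehicle. Deviations from group means of same-numbered arrays of the 2 exposures correlated at 0.0582 to 0.332, with 3 of 4 pairs over 0.1 in each fraction. The mean r was 0.21 in GFP- and 0.15 in GFP+ cells, against -0.070 and -0.051 for arrays of different numbers. The exposures held different mice, and the labels do not say that a number marks a shared day. The main comparison of exposures therefore used no block, and what same-numbered arrays share was not tested.

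Of the differences of single genes 431 kept their direction and side of the threshold and 13 turned, all of them not called; the cause was not tested. The Ciita difference after octanol was 0.021 log2 with arrays centred on their median. Centring on odorant receptor genes gave -0.091 log2 for H2-DMb1 in the interaction and 0.052 log2 for H2-Ab1 between exposures in GFP- cells. Leaving out 1 replicate at a time, the interaction ran from -0.018 to 0.20 log2 for H2-DMb1 and from -0.22 to 0.51 log2 for Ciita. The difference between exposures ran from -0.063 to 0.18 log2 for H2-Aa in GFP+ cells, and in GFP- cells from -0.50 to 0.027 log2 for H2-Aa, from -0.51 to 0.24 log2 for H2-Ab1 and from -0.61 to 0.011 log2 for H2-Eb1.

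Counts over all genes moved more. After octanol 3257 genes were higher and 2569 lower as deposited, against 11401 higher with arrays centred on their median, 536 higher and 8740 lower with arrays centred on receptors, and 1799 and 1970 higher without octanol replicates 1 and 4. After vehicle 2871 were higher and 2631 lower, against 4561 higher after quantile normalization, 12759 higher with median centring, 630 higher and 4387 lower with receptor centring, and 1836 and 1724 higher without vehicle replicates 1 and 4. With receptor centring 19 of 23 other pathway genes were lower after octanol.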
